A study of Saccharomyces cerevisiae with 4 samples.

Results

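Hexose transporters carry glucose into budding yeast, and a small set of membrane sensors decides which of them is made. The genes described here are *HXT1*, *HXT2*, *HXT3*, *HXT4*, *HXT5*, *HXT6* and *HXT7*, the sensor genes *SNF3* and *RGT2*, and *MTH1*, which encodes a regulator below the sensors. They were taken by gene symbol from the probe table of the array. Of the 10 genes, 9 had a probe set under their own name, and these 9 probe sets stand among 5498 named for 1 *S. cerevisiae* gene in a deposited table of 10928. No probe set carried the name of *HXT6*. The *HXT7* probe set is marked as shared between genes, and *HXT6* and *HXT7* are near-identical neighbours of the same length (1713 bp in the R64 gene table), so its signal cannot be assigned to *HXT7* alone. It is given apart from the other 8.

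Total RNA was measured on Affymetrix Yeast Genome 2.0 arrays, 1 sample an array. The RECQL5 group is 3 arrays, labelled as biological replicates 1, 2 and 3, of cells that express FLAG-tagged human RECQL5, a RecQ family DNA helicase, from plasmid pCM189, whose tet promoter is repressible by doxycycline and was active because the cells were grown without the drug. The WT array, a single one, came from cells that held pCM189 with no insert. All cells were W303-1A, a haploid strain of mating type a that carries *ade2-1*, *trp1-1*, *his3-11,15*, *ura3-1* and *can1-100* and a mutant *LEU2* allele, and all grew to mid-log phase in minimal medium with 2% glucose and no uracil, which selects for the plasmid. For its tet constructs the study's text names another empty plasmid, and it describes the medium as selective synthetic complete. The source names of RECQL5 replicates 2 and 3 end in RECQL6 and RECQL7, against their titles, strains and descriptions, so the titles were followed. Values are RMA log2 levels, on which a difference of 1 is a doubling. A change is the RECQL5 mean minus the WT value. WT has no replicate, and the study states that its array was standardized with published arrays without saying how, so a trait of that single array cannot be told apart from an effect of the helicase.

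Across the array, in *limma*, 405 of 4156 probe sets above the level filter (4-array mean no lower than 9.23, or 600 on the linear scale) were called higher in RECQL5 cells and 322 lower, where a call needs an adjusted p no greater than 0.1 together with a difference of 1.5-fold or more. The median change was 0.02. RECQL5 arrays correlated with each other at r = 0.989 to 0.996 and with WT at 0.918 to 0.931, across genes, which are not independent replicates. Markers of mating type a (*MFA1*, *MFA2*, *STE2*, *STE6* and *BAR1*) read 11.28 to 13.52 on RECQL5 arrays and 11.17 to 13.68 on the WT array. Of the mating type alpha markers, *MF(ALPHA)1*, *MF(ALPHA)2* and *STE3* read 5.75 to 6.85 on RECQL5 arrays and 5.94 to 7.96 on the WT array, while *SAG1*, the alpha-agglutinin gene, read 9.26 to 9.42 on RECQL5 arrays and 9.07 on the WT array.

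Yeast transporters divide by affinity. Hxt1 and Hxt3 have low affinity and high capacity and serve cells in plentiful glucose, Hxt2, Hxt4, Hxt6 and Hxt7 have higher affinity and are known to be made when glucose is scarce, and Hxt5 is known from slow growth and starvation. Snf3 senses low and Rgt2 high glucose, and each signals through casein kinase I to the destruction of Mth1 and Std1, which otherwise help the repressor Rgt1 to keep *HXT* promoters off. In addition, high glucose acts through the repressor Mig1, which is held in check by the kinase Snf1.

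Within the limits of 4 arrays, *HXT5* was the only gene of this set that differed between RECQL5 and WT cells by 1.5-fold or more. *HXT5* fell to 7.01, 7.08 and 7.84 in RECQL5 cells, against 9.13 in WT cells. The low-affinity transporter transcripts *HXT1* and *HXT3* differed by 0.08 and 0.01. Among the high-affinity transporters *HXT2* was higher on all 3 RECQL5 arrays by a mean of 0.47, which is 1.39-fold and under the fold threshold. The sensor gene *RGT2* was also higher on all 3, by a mean of 0.33, or 1.26-fold. All 3 RECQL5 arrays lay above WT for 45.8% of tested probe sets. Of the 7 members that passed the level filter *limma* called 0 in either direction. It called 17.5% of all tested probe sets (9.74% higher and 7.75% lower), a share that leaves few calls to be made among 7. An unadjusted p under 0.05 was reached by 1 of the 7 members and by 2567 of all 4156 tested probe sets. An adjusted p no greater than 0.1 was reached by 1 of the 7, *HXT2*, and by 2658 of the 4156. An adjusted p of that size was thus common across the array and does not single out a gene. *HXT5* and *RGT2* lay below that filter, and their tests come from the fit without it. That fit called 1 of the 9 members and 18.9% of 5498 probe sets (10.4% higher and 8.55% lower), and 9 members are likewise few for such a share. In it, 3 of the 9 members and 3163 of the 5498 probe sets had an unadjusted p under 0.05. The adjusted p was no greater than 0.1 for 3 of the 9 and for 3285 of the 5498.

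**Figure D1:**
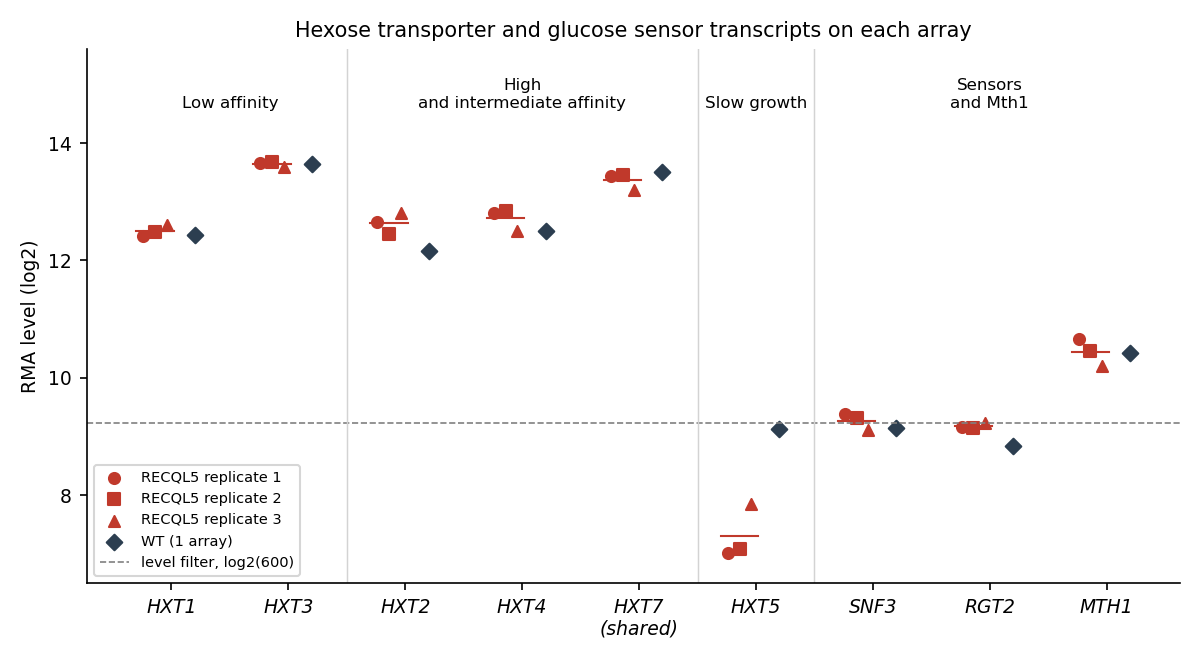
RMA log2 level of each member on each array (vertical axis), with the 3 RECQL5 arrays in red, their mean as a red line and the WT array as a dark diamond; the dashed line is the level filter at 9.23. The WT diamond lies well above the RECQL5 points for *HXT5* only (7.01 to 7.84 in RECQL5 cells, 9.13 in WT cells), below them for *HXT2* and *RGT2*, and level with or within them for the low-affinity transporters.

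The low-affinity transporters differed little between RECQL5 and WT cells. *HXT3* (YDR345C), a transporter known to be induced at any glucose level, read 13.66, 13.67 and 13.60 on the RECQL5 arrays and 13.64 on the WT array. WT lay inside the RECQL5 range. Its change was 0.01 ± 0.07 (SE of the fit, n = 3 and 1; adjusted p = 0.95, *limma*), with a 95% interval of 0.896-fold to 1.13-fold. *HXT1* (YHR094C), the transporter most strongly tied to high glucose, read 12.42, 12.49 and 12.60 on the RECQL5 arrays and 12.43 on the WT array. Here too WT lay inside the RECQL5 range, just above replicate 1. The change was 0.08 ± 0.09 (adjusted p = 0.50, *limma*), with an interval of 0.906-fold to 1.23-fold. Each interval lies inside 1.5-fold in both directions, on the assumption of the fit that the lone WT array varies like the RECQL5 arrays. The sign of the *HXT3* change turned with the scaling of the arrays.

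The higher-affinity transporters spread more between the RECQL5 arrays and lay on either side of WT. *HXT2* (YMR011W), a transporter known to be induced by low and shut off by high glucose, read 12.66, 12.45 and 12.81 on the RECQL5 arrays and 12.17 on the WT array. All 3 RECQL5 arrays lay above WT, as they did for 45.8% of tested probe sets. The change was 0.47 ± 0.14 (adjusted p = 0.038, *limma*), and its interval of 1.08-fold to 1.78-fold includes the 1.5-fold threshold that its mean of 1.39-fold did not reach. The adjusted p was 0.107 without RECQL5 replicate 1. *HXT4* (YHR092C), regulated in a like manner, read 12.82, 12.84 and 12.50 on the RECQL5 arrays and 12.51 on the WT array. Replicates 1 and 2 were higher than WT, and replicate 3 was at the WT level. The change was 0.21 ± 0.15 (adjusted p = 0.26, *limma*; interval -0.16 to 0.58 on the log2 scale). Without replicate 3 it was 0.32 with an adjusted p of 0.0075, still under 1.5-fold.

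The shared probe set listed for *HXT7* (YDR342C), a high-affinity transporter, read 13.45, 13.45 and 13.20 on the RECQL5 arrays and 13.50 on the WT array. All 3 RECQL5 arrays lay below WT, as they did for 40.4% of tested probe sets, replicates 1 and 2 by only 0.05 each. The change was -0.14 ± 0.12 (adjusted p = 0.37, *limma*; interval 0.739-fold to 1.12-fold). It is the only read-out of the *HXT6* and *HXT7* pair on these arrays, so an opposite change of the pair's members would not be seen.

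*HXT5* (YHR096C) gave the largest difference of the set. The gene encodes a transporter of intermediate affinity that is known to be made in slowly growing and starved cells rather than in response to glucose level itself. Its RECQL5 mean was 7.31 ± 0.46 (SD, n = 3), and the WT level was 3.52-fold the RECQL5 level (change -1.82 ± 0.35 SE, interval of the WT to RECQL5 ratio 1.87 to 6.64). The fit without a level filter called it lower in RECQL5 cells (adjusted p = 0.014, *limma*), as it did 8.55% of all probe sets. In the fit with the filter it was not tested, since its mean over the 4 arrays lay below 9.23, as did its WT level of 9.13.

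The RECQL5 arrays differed among themselves in *HXT5* more than in most genes. Replicates 1 and 2 differed from WT by -2.11 and -2.05, and replicate 3 by -1.29. The SD over the RECQL5 arrays stood at the 99.5th percentile of the 5498 probe sets. Left out one at a time, the RECQL5 replicates gave changes between -2.08 and -1.67 with adjusted p values of 0.002 to 0.044. At the stricter adjusted p of 0.01, which another section of the study's methods names, *HXT5* was not called.

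**Figure D2:**
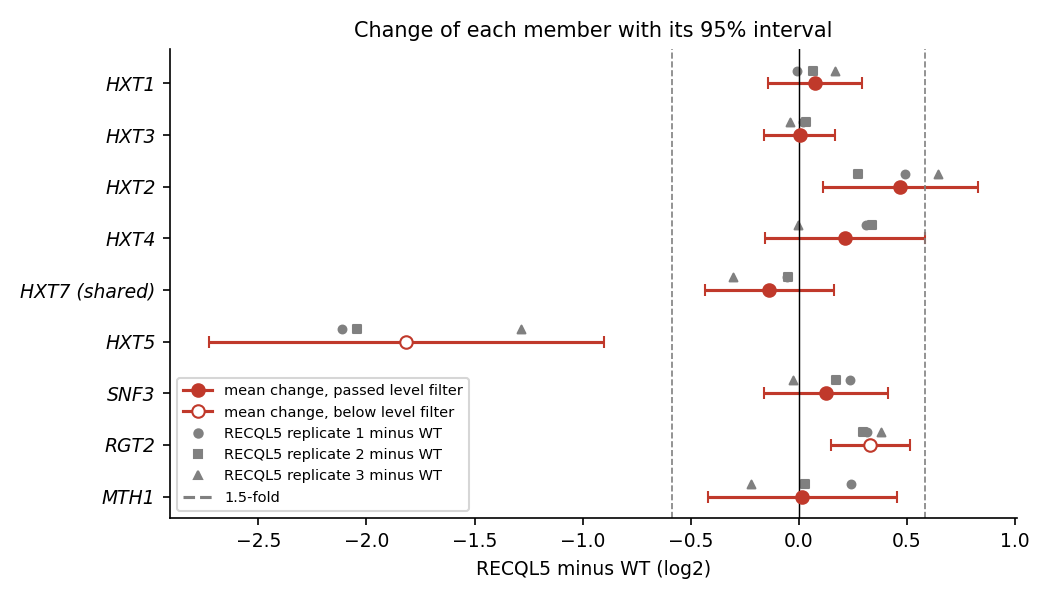
Change of each member, RECQL5 minus WT on the log2 scale (horizontal axis), with the 95% interval of the *limma* fit as a bar; grey marks give each RECQL5 array minus WT, open circles mark members below the level filter and dashed lines mark 1.5-fold. The *HXT5* interval lies wholly to the left of the 1.5-fold line, *HXT2* and *RGT2* have intervals above 0 with means under 1.5-fold, and the other intervals span 0.

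The nearest measured neighbours of *HXT5* did not share its difference. In the R64 gene table *HXT4*, *HXT1* and *HXT5* lie in a row on chromosome VIII, with the small gene *AHT1* between the first pair. Their changes were 0.21, 0.08 and -1.82. *SFB3*, the COPII coat gene next but one on the far side, differed by -0.09 (adjusted p = 0.28, *limma*), and *MSR1*, a mitochondrial arginyl-tRNA synthetase gene beside *HXT4*, by 0.17 (adjusted p = 0.11). *SFB3* and *MSR1* were picked for their position. In the other cluster, on chromosome IV, *HXT7*, *HXT6* and *HXT3* lie close together, and the shared *HXT7* probe set and that of *HXT3* differed from WT by -0.14 and 0.01.

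The sensor genes were transcribed at levels near the filter. *RGT2* (YDL138W), the sensor of high glucose, read 9.16, 9.14 and 9.22 on the RECQL5 arrays and 8.84 on the WT array. The RECQL5 arrays lay close together. All 3 lay above WT, as they did for 2510 of all 5498 probe sets. The change was 0.33 ± 0.07 (adjusted p = 0.018 in the *limma* fit without the filter), or 1.26-fold with an interval of 1.11-fold to 1.43-fold, and so below 1.5-fold throughout. *SNF3* (YDL194W), the sensor of low glucose, read 9.38, 9.31 and 9.11 on the RECQL5 arrays and 9.14 on the WT array. WT lay just above replicate 3. The change was 0.13 ± 0.11 (adjusted p = 0.39, *limma*; interval 0.895-fold to 1.33-fold), and without replicate 3 it was 0.21 with an adjusted p of 0.045, still under 1.5-fold. *SNF3* lay so close to the filter that setting it by the WT level of 9.14 took the gene out of the test.

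*MTH1* (YDR277C), whose product works with Rgt1 to repress *HXT* genes and is degraded when the sensors bind glucose, read 10.67, 10.46 and 10.20 on the RECQL5 arrays and 10.42 on the WT array. The RECQL5 arrays lay on both sides of WT, and their SD of 0.23 was at the 94.7th percentile of all probe sets. The change was 0.02 ± 0.17 (adjusted p = 0.94, *limma*; interval 0.747-fold to 1.37-fold). Its sign turned under cyclic loess and without replicate 1.

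The WT array lay inside the range of the RECQL5 arrays for 5 of the 9 members, *HXT1*, *HXT3*, *HXT4*, *SNF3* and *MTH1*, against 14.8% of all 5498 probe sets. This range was also wide. The SD over the RECQL5 arrays was above the table's median of 0.067 for 7 of the 9 members, the exceptions being *HXT3* and *RGT2* at 0.04 each. RECQL5 replicate 3 was the highest or the lowest of the 3 for 9 of 9 members, against 73.0% of all probe sets, and for 8 of 9 it was the array farthest from the middle one, against 40.5%. It was above the other arrays for *HXT1*, *HXT2*, *HXT5* and *RGT2* and below them for *HXT3*, *HXT4*, *HXT7*, *SNF3* and *MTH1*. Against the mean of replicates 1 and 2 it stood 0.79 higher for *HXT5*, 0.36 lower for *MTH1* and 0.33 lower for *HXT4*. Members share their arrays, so these counts are not independent of each other.

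Probe sets for genes outside the budding yeast table gave a floor for the members and for the rest of the hexose transporter family. The array also holds 1746 probe sets for genes that are not in the *S. cerevisiae* table, since its design covers fission yeast too. Their medians were 3.21 to 3.22 on the RECQL5 arrays and 3.22 on the WT array, and the highest of them read 6.45 to 6.77 on the RECQL5 arrays and 6.61 on the WT array. All 9 members were above that highest value on all 4 arrays. *HXT5* came closest, at 7.08 in RECQL5 replicate 2, where the highest of the outside probe sets read 6.74. Of 12 probe sets for *HXT8* to *HXT17* and the galactose permease gene *GAL2*, 7 averaged below the 95th percentile of these foreign probe sets, namely those of *HXT8*, *HXT10*, *HXT13*, *HXT14* and *HXT15* and a shared one of *HXT17*. None of the 12 passed the level filter. In the fit without it, *HXT11*, a close relative of *HXT9* linked to drug sensitivity, was called lower (6.26, 6.34 and 6.70 on the RECQL5 arrays and 7.17 on the WT array; change -0.74 ± 0.19, adjusted p = 0.030, *limma*). Its RECQL5 levels lay below the highest outside probe set on all 3 arrays, so the size of the change is uncertain. It was chosen after its value was seen, and 18.9% of probe sets were called in that fit. Of the 2 probe sets of *HXT9*, the shared one differed by -0.26, and its signal cannot be assigned to *HXT9* alone. The other differed by 0.11, with WT inside the RECQL5 range, and neither was called in that fit. Probe sets differ in how strongly they bind, so levels are not ranked between genes.

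**Figure D3:**
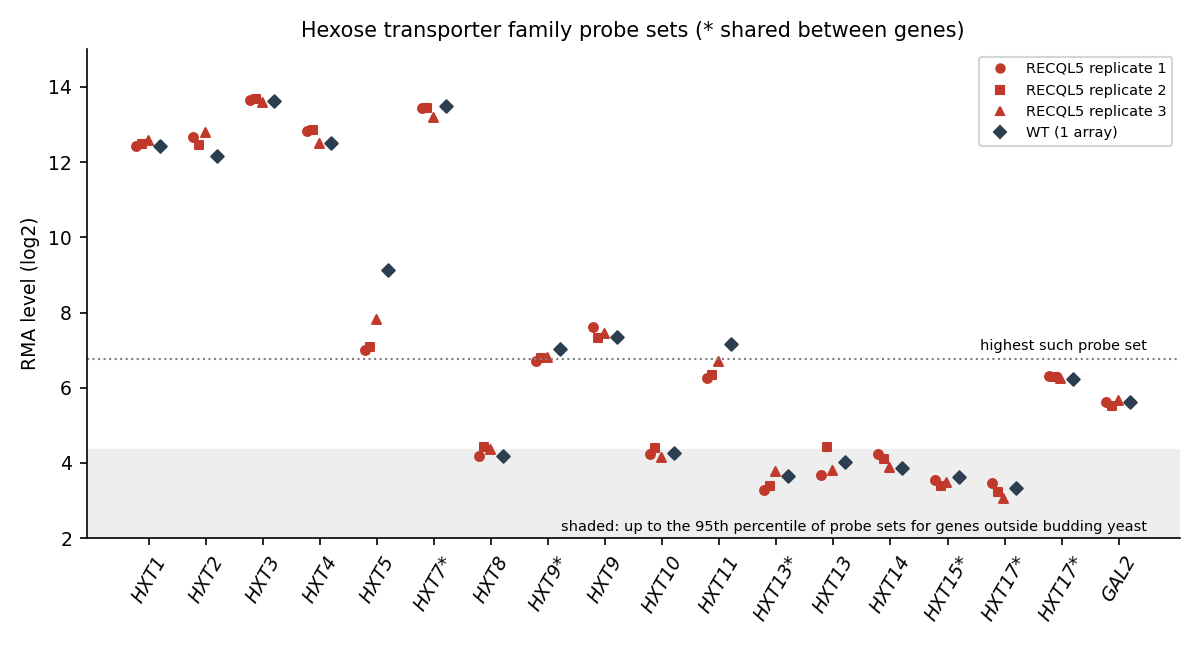
RMA log2 level (vertical axis) of every hexose transporter family probe set on the 3 RECQL5 arrays (red) and the WT array (dark diamonds), with shared probe sets starred; the shaded band reaches the 95th percentile of 1746 probe sets for genes outside *S. cerevisiae* and the dotted line marks the highest of them, 6.77. *HXT1* to *HXT5* and *HXT7* lie above that line on every array, and *HXT5* is the member nearest to it in RECQL5 cells.

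Of the 10 genes between the sensors and the *HXT* promoters (*STD1*, *RGT1*, the casein kinase genes *YCK1* and *YCK2*, the ubiquitin ligase genes *GRR1*, *CDC53*, *SKP1* and *CDC34*, and the corepressor genes *CYC8* and *TUP1*), *limma* called 0, where it called 17.5% of all tested probe sets, a share that leaves few calls to be made among 10. The median change was 0.17, against 0.02 over all tested probe sets. The largest were *YCK2* (11.15, 11.18 and 11.17 on the RECQL5 arrays and 10.76 on the WT array; change 0.41 ± 0.06, adjusted p = 0.0038) and *STD1*, the paralog of *MTH1* (11.28, 11.24 and 11.05 on the RECQL5 arrays and 10.79 on the WT array; change 0.40 ± 0.10, adjusted p = 0.024). Neither reached 1.5-fold.

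Of the 4 genes for enzymes that trap glucose in the cell, or their relatives, 2 fell, where 7.75% of all tested probe sets did. The glucokinase gene *GLK1* fell, reading 12.34, 12.11 and 11.95 on the RECQL5 arrays and 13.51 on the WT array (change -1.38 ± 0.15, adjusted p = 0.0017, *limma*). *EMI2*, a gene related to *GLK1*, also fell (11.28, 11.11 and 10.88 on the RECQL5 arrays and 11.72 on the WT array; change -0.63 ± 0.15, adjusted p = 0.019), though without replicate 3 its change was -0.52 and under 1.5-fold. The hexokinase genes were not called. *HXK1*, the isoenzyme of poor carbon sources, differed by -0.52 ± 0.22 (adjusted p = 0.095, *limma*). *HXK2*, the main isoenzyme in glucose, was higher on all 3 RECQL5 arrays, as were 45.8% of tested probe sets. Its change was 0.32 ± 0.07 (adjusted p = 0.014, *limma*), or 1.25-fold.

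In the Snf1 and Mig1 pathway of glucose repression 1 of 14 tested genes was called, against 17.5% of all tested probe sets. *SIP2*, encoding a beta subunit of the Snf1 kinase complex, fell to 9.50, 9.42 and 9.30 in RECQL5 cells, against 10.10 in WT cells (change -0.69 ± 0.09, adjusted p = 0.0029, *limma*). The list's median change was -0.04. Among genes known to be repressed by glucose, *CYB2*, the lactate dehydrogenase gene, fell (9.88, 9.68 and 9.34 on the RECQL5 arrays and 11.03 on the WT array; change -1.40 ± 0.20, adjusted p = 0.0036), as 1 of 8 tested. Of all tested probe sets 7.75% were called lower, a share that leaves few calls to be made among 8. The median of those 8 was -0.42, and 7 of them lay below WT on all 3 RECQL5 arrays, as 40.4% of tested probe sets did. *SUC2*, the invertase gene and the usual reporter of Mig1 repression, was the other tested gene of the list and differed by 0.18 (adjusted p = 0.24). Without the level filter 4 of 18 were called lower, the further ones being the glyoxylate and gluconeogenic genes *MLS1* (-1.21) and *FBP1* (-1.09) and the peroxisomal oxidase gene *POX1* (-0.67), chosen after their values were seen. All 3 of these lie near the floor. *POX1* read below the highest outside probe set on all 4 arrays, and *MLS1* and *FBP1* did so in RECQL5 replicates 2 and 3, so the size of their changes is uncertain. The background of calls in that direction was 8.55%.

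Glucose is also sensed through cyclic AMP and protein kinase A. Of 15 tested genes of that pathway 2 were called, both lower in RECQL5 cells, where 17.5% of all tested probe sets were called and 7.75% were called lower. *TPK2*, a catalytic subunit gene, read 10.52, 10.35 and 10.33 on the RECQL5 arrays and 11.03 on the WT array (change -0.63 ± 0.09, adjusted p = 0.0041, *limma*). *BCY1*, the regulatory subunit gene, read 11.77, 11.67 and 11.53 on the RECQL5 arrays and 12.25 on the WT array (change -0.59 ± 0.11, adjusted p = 0.0072), and without replicate 3 its change of -0.52 was under 1.5-fold. The list's median was -0.11.

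*HXT5* lay low in the same arrays as a list of 18 general stress genes that are known to move with slow growth. Of these, 12 were called lower and 0 higher (median -0.70), where 7.75% of tested probe sets were called lower. All 18 lay below WT on all 3 RECQL5 arrays, as 40.4% of tested probe sets did. The largest falls were those of the small heat shock gene *HSP26* (-2.75), the catalase gene *CTT1* (-1.92), *SOL4* (-1.66), a gene of the pentose phosphate family, and the Hsp70 gene *SSA4* (-1.57). The list was written with the fall of stress genes on these arrays known. Its counts are therefore a description, and their contrast with the shares over all tested probe sets tests nothing. Within the RECQL5 group *HXT5* was highest in replicate 3. Of the 18 stress genes 11 were lowest there and 3 were highest. Of all 5498 probe sets 2033 were lowest there and 1983 were highest. In the study's plate assays, cells with RECQL5 under the tet promoter showed no impairment of growth. The part of growth rate or stress in the *HXT5* difference was not tested.

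**Figure D4:**
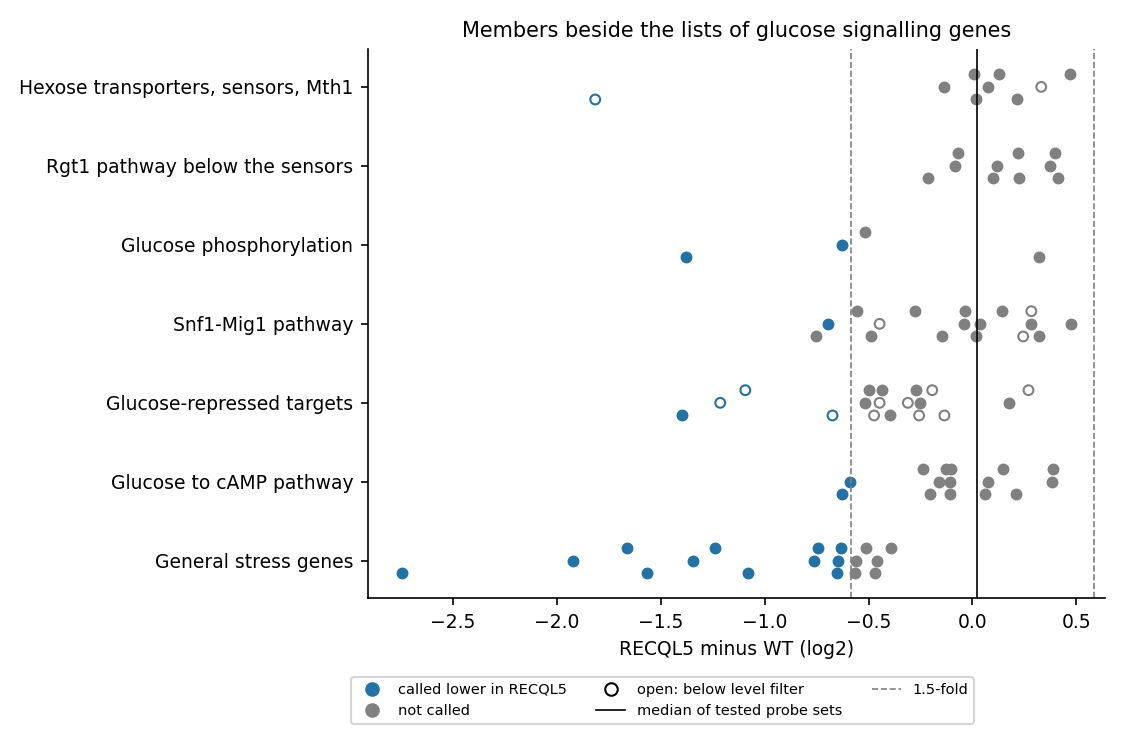
Change of each member and of each gene in the lists of glucose signalling and stress genes, RECQL5 minus WT on the log2 scale (horizontal axis), 1 point a probe set; blue marks those called lower by *limma*, grey those not called, and open points lie below the level filter, with their call from the fit without it. The solid line is the median of all tested probe sets, 0.02, and dashed lines mark 1.5-fold. No point lies beyond the right-hand 1.5-fold line, and *HXT5* is the single member beyond the left-hand one.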

How the data were processed

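The authors deposited a single table of RMA-normalized log2 values (background-corrected, quantile-normalized, summarised per probe set by median polish). RMA and limma are named in the submitters' notes, but their versions are not given in the sources used here. Scanner files were not used here. Having few arrays, and 1 for WT, limits the precision.

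Gene names came from the array's probe table, updated through gene identifiers to the R64 gene table. Of 10928 probe sets 5498 named 1 yeast gene, and all were kept, so a gene may count more than once. Those with a mean of at least log2(600) were fitted in limma 3.58.1 (R 4.3.3; lmFit, eBayes, two-sided, Benjamini-Hochberg over 4156 probe sets). The level of 600 and the thresholds are those of the study's methods. The study does not say over which arrays that level was taken, and the mean over the 4 arrays was chosen here. The 2 residual degrees of freedom of this fit come from RECQL5 alone. The counts of called probe sets are those of this fit, and they exceed the counts of altered genes that the study reports. Members below the filter were taken from the fit without it. The procedure was tested on simulated data in which the WT array had the same spread as the RECQL5 arrays. Such data cannot show how a trait of the single WT array would act.

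Members and lists were chosen with earlier results of these data known. All members are named, with up to 4 called genes of each list by size of change, or up to 2 tested ones where none was called. *HXK1*, *HXK2*, *SUC2*, *MAL11* and genes named for position were added after their values were seen. Alternatives covered the filter, array scaling, probe set choice, prior and threshold, and the omission of each RECQL5 array.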

Additional observations from a re-analysis of the deposited data

How the results depend on the processing

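No paired analysis was possible because WT has a single array, and its sharing of a replicate number with 1 RECQL5 array does not make a pair. *HXT3* turned sign, with changes of -0.0131 under cyclic loess and -0.00717 under median centring and a range of -0.00965 to 0.0283 when RECQL5 replicates were left out, and *MTH1* turned to -0.0223 under cyclic loess and ranged from -0.0946 to 0.137 when replicates were left out. The size of these changes is within the error of the fit. The count of members called lower, 0 with the filter, was 1 (*HXT5*) without it. It was also 1 when the filter was dropped together with cyclic loess, with median centring, with a prior trend or with any 1 RECQL5 replicate (range 1 to 1), settings chosen after seeing the data, and 0 when dropped together with an adjusted p of 0.01, where *HXT5* kept its change of -1.82. No setting called a member higher. Calls in the lists numbered 18 lower and 0 higher, and without the filter 2 higher, both probe sets of *MPH2*, and 22 lower. The lower count was 21 under cyclic loess and without RECQL5 replicate 1, and 16 without replicate 3 and at an adjusted p of 0.01. *EMI2* and *BCY1* lost their calls without RECQL5 replicate 3, *EMI2* also at an adjusted p of 0.01, *GSY2* without replicate 3 and *PGM2* at that p, while *HXK1* was called lower without replicate 1 (-0.65). *SNF3* was not tested with the filter on the WT array or without RECQL5 replicates 1 or 2, and the shared *HXT7* probe set not where shared ones were left out.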

Other observations

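The only higher calls among the listed genes were those of 2 probe sets of a single gene. *MPH2*, an alpha-glucoside permease gene of a subtelomeric family, read 6.31, 6.65 and 6.48 on the RECQL5 arrays and 5.38 on the WT array by its own probe set (change 1.10 ± 0.14, adjusted p = 0.0056, *limma* without the level filter). Its shared probe set read 7.83, 7.49 and 7.49 on the RECQL5 arrays and 6.70 on the WT array (change 0.90 ± 0.16, adjusted p = 0.011). The first read below the highest probe set for genes outside the budding yeast table on all 4 arrays (6.45 to 6.77 on the RECQL5 arrays and 6.61 on the WT array), so its change is uncertain. Both read below the level filter of 9.23, and near-identical family members cannot be told apart by the shared one. *MPH2* was chosen after its value was seen, and 10.4% of probe sets were called higher in that fit. The maltose permease genes *MAL31* and *MAL11* differed by 0.18 and 0.06 and were not called.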
